A study of Mus musculus with 18 samples.

Results

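Type I interferon response genes were measured in microglia, the resident macrophages of the brain, in mice of both sexes whose labels call them Chd8 KO (knockout) or WT (wild type). The members were a named list of 37 genes, looked up by symbol among the 55414 genes of the deposited table, and all 37 were found there. A filter on low counts, which kept 10948 genes in all, left 33 of the 37 for testing. Ifit1, Rsad2, Cmpk2 and Ifi44 did not pass it, with 114, 46, 84 and 15 molecules counted over all 18 libraries, so they are described by their counts and were not tested. The 4 groups were female WT (4 libraries), female KO (4), male WT (5) and male KO (5). Every title also carries the prefix HX, which the labels do not explain and which may stand for something that all 4 groups share. The labels name no other allele or treatment, and do not say whether the loss of Chd8 is in microglia or in the whole mouse, whether 1 or both copies are lost, how old the mice were, or whether each library came from its own animal. The p-values below therefore measure the spread between these libraries.

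Type I interferons are secreted antiviral proteins that bind the receptor pair Ifnar1 and Ifnar2, whose kinases Jak1 and Tyk2 phosphorylate STAT proteins. Stat2 takes part with Irf9 in a complex that enters the nucleus and binds the interferon-stimulated response element (ISRE), a short DNA motif in the promoters of interferon-stimulated genes. The induced genes encode sensors of foreign nucleic acid, proteins that block viral replication, and regulators that prolong or end the signal. Microglia express many of them at a low level without infection, and raise them in ageing and disease.

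Libraries were bulk MARS-seq, a method that sequences the 3' end of messenger RNA and marks every molecule with a barcode of its own, the unique molecular identifier (UMI). Totals were 435838 to 9149144 UMIs per library, and values are given in CPM, the UMIs of a gene relative to the library's total, scaled between libraries by the TMM method. They are compared here between groups for 1 gene at a time. Values are listed in the order of the replicate numbers, which are 30, 31, 34 and 39 in female WT, 1, 7, 16 and 33 in female KO, 10, 11, 13, 14 and 37 in male WT, and 6, 9, 17, 36 and 40 in male KO. All 8 female libraries had more Xist than any male library. Y-linked transcripts (4 genes summed) were higher in 9 of 10 male libraries than in any female library; the exception was male KO replicate 6 at 22.97 CPM, against 23.2 CPM (9 UMIs) in female KO replicate 33. Replicate 33 thus carried both Xist and Y-linked transcripts and goes in part against its label; the other 7 female libraries had at most 2.06 CPM of Y-linked transcripts, and its Xist level of 25.7 CPM (10 UMIs) was the lowest of the females, against 38.7 CPM or more in the others. Without it, as with it, 0 members passed in the female KO comparison and 3 in the KO sex comparison, while 4 passed averaged over the sexes and 1, Samhd1, in the difference of KO effects. Chd8, the targeted gene, was at 115.8 to 139 CPM in female KO against 132 to 185.8 in female WT (log2 fold change -0.44 ± 0.12, SE; edgeR adjusted p = 0.0547), and at 96.4 to 116 in male KO against 135 to 167 in male WT (-0.54 ± 0.10; edgeR adjusted p = 0.00171). The labels do not say whether the counted 3' end lies in the deleted part. All 11 microglial markers checked were detected in every library. Sequencing depth per molecule moved with the groups: 3 of 4 female WT libraries had over 4 reads per UMI and no male library did, while 7 of 10 male libraries had under 2.4 and 1 of 8 female libraries did. The shallowest libraries were female KO replicate 33 with 435838 UMIs and female WT replicate 34 with 458075, where 15 and 12 of the 33 members had fewer than 10 UMIs. Male KO replicates 6, 9 and 17 carried the most neuronal transcripts, at 200 to 320 CPM summed over 6 markers, against 13.2 to 111 in the female libraries and male WT.

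The ISRE motif was looked for in promoter sequences from RefSeq (assembly GRCm38.p6), taken as 250 bases before to 50 after a gene's start, because it is the element through which these genes answer interferon. Of the 37 members, 27 had a promoter entry, and 14 of these (51.9%) held an ISRE-like GAAANNGAAA on either strand, against 3.99% of all 27025 genes with an entry. A GAS-like TTCNNNGAA, a form bound by STAT proteins, was in 5 of the 27 (18.5%) against 9.55% of all genes. In Bst2 the GAAANNGAAA and the TTCNNNGAA shared bases. A match is printed for each gene with one that passes in a comparison below, and for Ifit3b, whose windows equal those of Ifit3. Letters run 5′ to 3′ along the gene's strand, with the match in capitals, and the number after each name is the position of its first base relative to the start site.
Ifit3 and Ifit3b, first match: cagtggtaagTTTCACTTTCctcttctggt
Ifit3 and Ifit3b, second match: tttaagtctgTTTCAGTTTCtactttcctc
Oas3, -75: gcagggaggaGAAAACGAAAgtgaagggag
Oas1a, -20: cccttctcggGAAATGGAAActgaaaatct
Isg15, -72: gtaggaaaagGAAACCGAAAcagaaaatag
Bst2, -130: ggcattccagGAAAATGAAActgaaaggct
Slfn8, -136: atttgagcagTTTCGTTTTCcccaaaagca
Slfn5, -155: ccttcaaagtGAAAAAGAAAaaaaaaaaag
The windows lie at chr19:34583363-34583392 and chr19:34583397-34583426 for Ifit3, chr19:34607759-34607788 and chr19:34607793-34607822 for Ifit3b, chr5:120777715-120777744 for Oas3, chr5:120907526-120907555 for Oas1a, chr4:156200871-156200900 for Isg15, chr8:71537583-71537612 for Bst2, chr11:83020839-83020868 for Slfn8 and chr11:82951937-82951966 for Slfn5, on the plus strand for Ifit3, Ifit3b and Slfn5 and the minus strand for the others. Slfn8 has 2 promoter entries, and its match lies at -136 or -48 by them. Ifit3 and Ifit3b carried 2 matches each, and both 30-base windows were letter for letter the same in the 2 genes. Isg15 held 3 overlapping matches and Bst2 and Oas1a 2 each, of which 1 is printed. Oas2, Ifi27l2a, Ifi204 and Usp18 are among the 10 members with no entry, while Samhd1, Oasl1, Oasl2, Irf7, Irf9, Xaf1, Sp100, Slfn2, Lgals3bp and Ifit2 had an entry without this motif. A match is a description of the sequence, and no match says only that these letters are absent from this window.

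Across the 33 tested members, female WT had the highest mean of the 4 groups for 18 and male WT the lowest for 22. For 24 of the 33 the female mean was above the male mean in both genotypes. Summed over all 37 members, the libraries held 2121 to 2591 CPM (of the library total) in female WT, 2145 to 2579 in female KO, 1576 to 1835 in male WT and 1909 to 2074 in male KO. The male WT libraries were below all others, the male KO libraries lay between them and the females, and the female groups overlapped. The sum weighs abundant members most, Bst2 first among them. In bulk RNA, more cells of a type and more of the RNA in each cell cannot be told apart. The shallow female WT replicate 34 was the highest library for 13 of the 33 members. Within groups the members moved together only loosely: over the 18 libraries, with group means removed, the median correlation between pairs of members was 0.10, against 0.0044 for all tested genes, and 9.85% of the 528 member pairs exceeded 0.5, against 10.1% of all pairs. The members share library and depth with every other gene in these correlations.

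**Figure D1:**
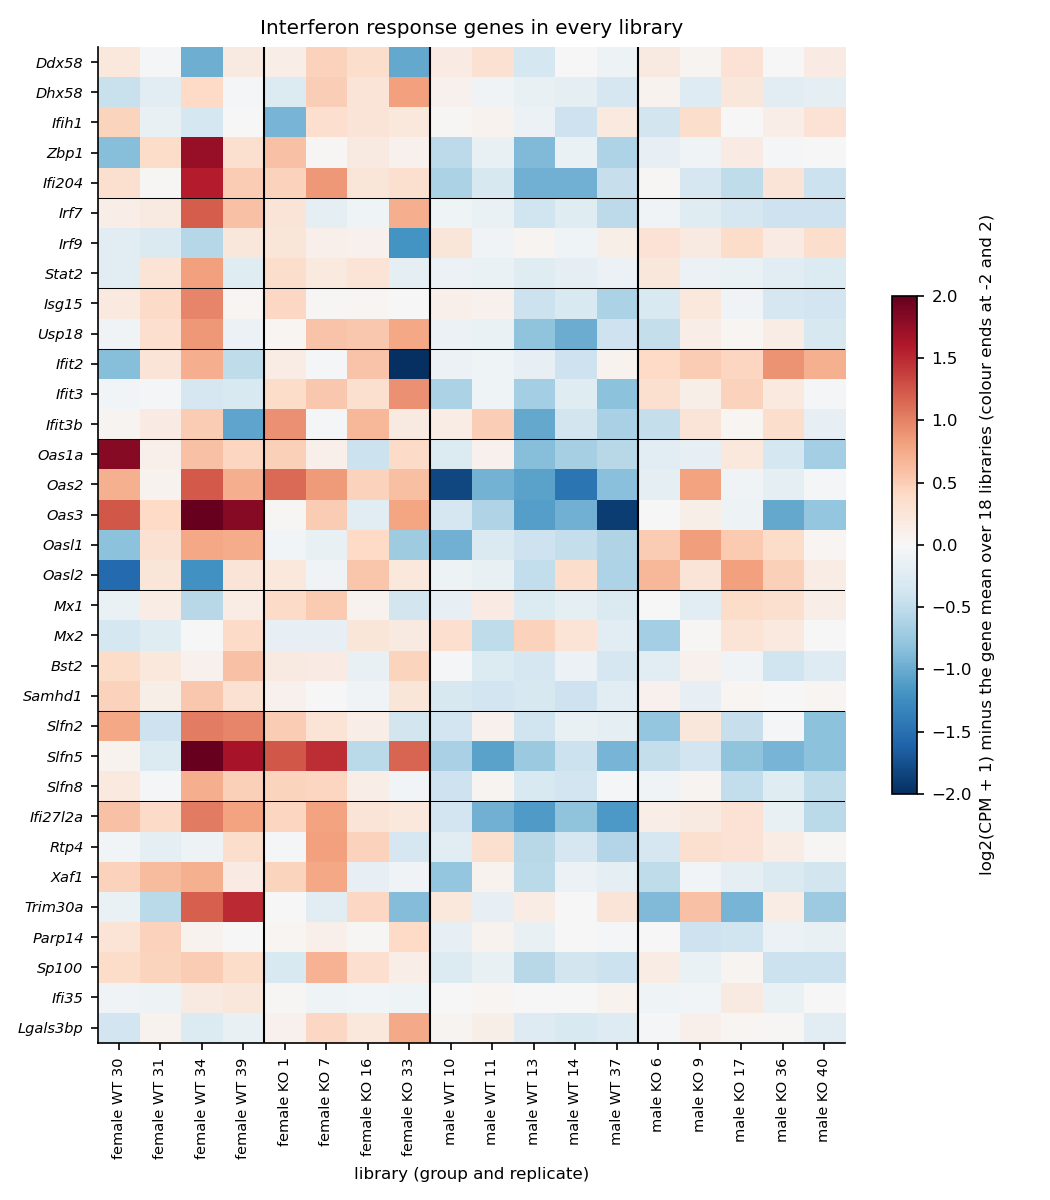
Each row is 1 of the 33 tested interferon response genes, grouped by role, and each column is 1 of the 18 libraries, ordered by group; colour shows log2(CPM + 1) minus that gene's mean over the 18 libraries. The female WT columns hold the deepest red, most of all replicate 34, and the male WT columns are mostly blue.

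Markers of other cells moved with the same groups. Border-associated macrophages, the macrophages of the meninges and vessel borders, have 8 markers on the list and all 8 were detected in every library; their sum was 30.0 to 57.8 CPM in male WT and 136 to 299 in the 13 other libraries, so the group lowest for most members was also the lowest for these markers. Monocyte markers (7 of 8 detected in every library) summed to 280 to 871 CPM in female WT, 149 to 310 in female KO, 68.6 to 99.8 in male WT and 60.3 to 125 in male KO. Neutrophil markers (8 of 8) summed to 2151 to 15618 CPM in female WT, 986 to 5247 in female KO, 312 to 1147 in male WT and 323 to 625 in male KO. Neuronal markers (4 of 6) were at 67.7 to 320 CPM in male KO against 13.2 to 37.2 in male WT. Oligodendrocyte markers (4 of 6) were at 301 to 874 CPM in male KO, 173 to 227 in male WT and 173 to 303 in the female libraries. Astrocyte markers (2 of 6) were at 213 to 291 CPM in male KO, 127 to 177 in male WT and 13.8 to 241 in the females. All 3 neural lists were thus higher in every male KO library than in every male WT library, as were the members Oas2, Ifit3, Oasl1, Samhd1 and Ifit2 below. Of 5 markers of plasmacytoid dendritic cells, specialist producers of type I interferon, Klk1 was at 0 in all libraries and Ccr9 at 0 in 14 of 18. Ly6d was at 0 in 8 libraries, while Cox6a2 and Pacsin1 were detected in every library. The 5 markers summed to 8.74 to 32.7 CPM over the 18 libraries. No lymphocyte marker was detected in every library, and their sum stayed at or below 4.65 CPM. The part of these cells in the results below was not tested.

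**Figure D2:**
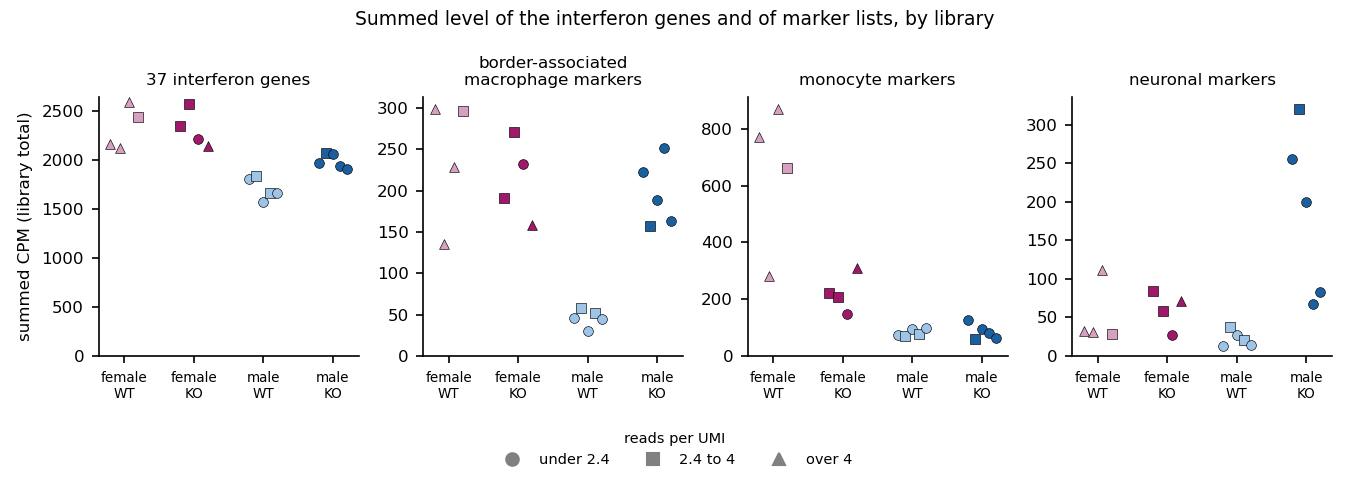
Each point is 1 library and shows the summed CPM, of the library total, for the 37 interferon response genes and for 3 marker lists; the marker shape gives the range of reads per UMI. Male WT lies lowest both for the interferon genes (1576 to 1835 CPM) and for border-associated macrophage markers (30.0 to 57.8 CPM), and monocyte markers are highest in female WT.

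In males, a small set of interferon response genes was higher in Chd8 KO than in WT microglia. Oas2, Ifi27l2a, Ifit3, Oasl1 and Samhd1 rose in male KO against male WT, by 2.54-, 1.83-, 1.62-, 2.22- and 1.26-fold, and no member fell. That is 5 of 33 tested members higher, against 3.37% of all tested genes higher and 2.87% lower in this comparison (6.24% in either direction). The median log2 fold change of the 33 members was 0.20, with 25 positive, against a median of -0.01 and 48.6% positive over all tested genes. Groups that did not overlap, with every male KO library above every male WT library, were seen for Oas2, Ifit3, Oasl1, Samhd1 and Ifit2, against 5.27% of all tested genes; no member lay wholly below, against 4.58%. Without male KO replicates 6, 9 and 17, the libraries with most neuronal transcripts, Oas2 alone of the 5 passed. Calls over all genes also went from 683 to 196 in that fit. Within the 7 male libraries under 2.4 reads per UMI all 5 passed, and 939 genes were called in all.

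In females no member passed in either direction, against 0.849% of all tested genes higher and 1.83% lower (2.68% in either direction). DESeq2 called 1 member, Lgals3bp, and 352 genes in all. Of the 33, 5 had an edgeR unadjusted p under 0.05, with no share over all genes given here to set beside it. The median log2 fold change was -0.03, with 14 of 33 positive, against 0.01 over all tested genes. Ifit3 and Lgals3bp were higher in every female KO library than in every female WT library, with 2.48% of all tested genes not overlapping in that direction. Averaged over both sexes, 3 members rose, Ifit3, Oas2 and Lgals3bp, against 4.37% of tested genes higher, and none of the 33 fell, against 5.13% (9.5% in either direction).

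The KO effect was not shown to differ between the sexes for any single member. By the test of the difference itself (female minus male), 0 of 33 passed, against 0.237% of all tested genes in either direction. DESeq2 called 2 members, Samhd1 and Ifi27l2a, and 76 genes in all. An edgeR unadjusted p under 0.05 was seen for 6 members, with no share over all genes given here. The difference was negative for 25 of 33, with a median of -0.18 against 0.01 over all tested genes. Samhd1 (-0.64 ± 0.15; edgeR adjusted p = 0.0765) and Ifi27l2a (-1.12 ± 0.26; edgeR adjusted p = 0.0847) came nearest, followed by Oas2, Oas3 and Oasl1 with edgeR adjusted p from 0.298 to 0.351. Leaving out female WT replicate 31 brought both past the threshold (edgeR adjusted p = 0.0188 for Samhd1 and 0.029 for Ifi27l2a), as did female KO replicate 33 for Samhd1 (0.0276) and male KO replicate 40 or male WT replicate 10 for Ifi27l2a (0.029 to 0.0466 over its 3 libraries, edgeR).

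**Figure D3:**
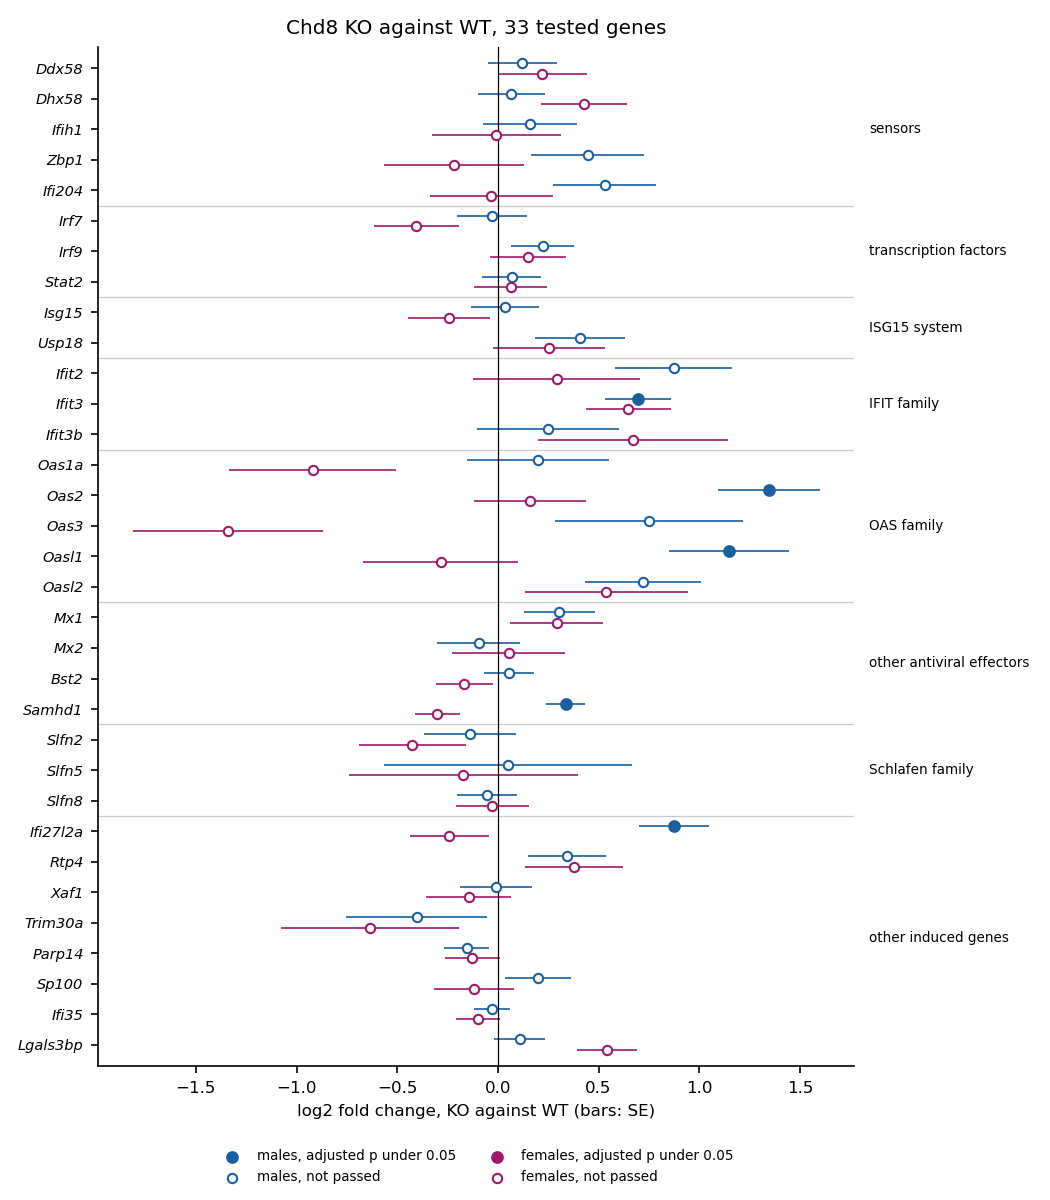
Points give the log2 fold change of KO against WT for the 33 tested members, in males (blue) and females (magenta), with bars of 1 SE; filled points passed an edgeR adjusted p of 0.05 and open points did not. The 5 filled points, Oas2, Oasl1, Ifi27l2a, Ifit3 and Samhd1, are all male and all above 0.

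Between the sexes, members differed in WT microglia in 1 direction. In WT, 14 of 33 members were lower in males than in females and none higher, against 10.3% of all tested genes lower and 6.94% higher. They were Ifi27l2a, Oas2, Samhd1, Oas3, Ifi204, Sp100, Bst2, Irf7, Slfn5, Xaf1, Oas1a, Slfn2, Isg15 and Slfn8, from 1.44-fold (Slfn8) to 7.15-fold (Oas3) lower. The median log2 fold change was -0.54, with 28 of 33 negative, against -0.01 over all tested genes. For 11 of the 14 no male WT library reached the lowest female WT library, against 9.41% of all tested genes, and for none did the male libraries lie wholly above, against 8.81%. Of the 11 of these 14 genes with a promoter entry, 6 held the ISRE-like motif printed above. Reads per UMI moved with this comparison: with the reads-per-UMI range as covariate 4 members passed (Oas2, Oas3, Ifi27l2a and Samhd1), and within the 3 WT libraries of 2.4 to 4 reads per UMI, where female WT is replicate 39 alone and is assumed to vary like the other groups, 6 passed, 5 of them among the 14.

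In KO microglia, Slfn5, Slfn8 and Xaf1 fell in male KO against female KO, 3 of 33 members against 4.27% of all tested genes lower, and none rose, against 2.83% (7.1% in either direction). The median log2 fold change was -0.33, with 27 of 33 negative, against -0.02 over all tested genes. Parp14 was the member whose male KO libraries all lay below the female KO libraries, against 4.53% of all tested genes, and it did not pass; none lay wholly above, against 4.69%. None of the 3 passed with the reads-per-UMI range as covariate, without male KO replicates 6, 9 and 17, or within 2.4 to 4 reads per UMI, where male KO is replicate 9 alone. Under 2.4 reads per UMI, where female KO is replicate 16 alone, Slfn8 and Xaf1 did not pass and Slfn5 was not tested, since it did not pass the filter there. Both sex comparisons share their libraries with the KO comparisons, so a low male WT level enters the male KO effect and the WT sex difference together.

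**Figure D4:**
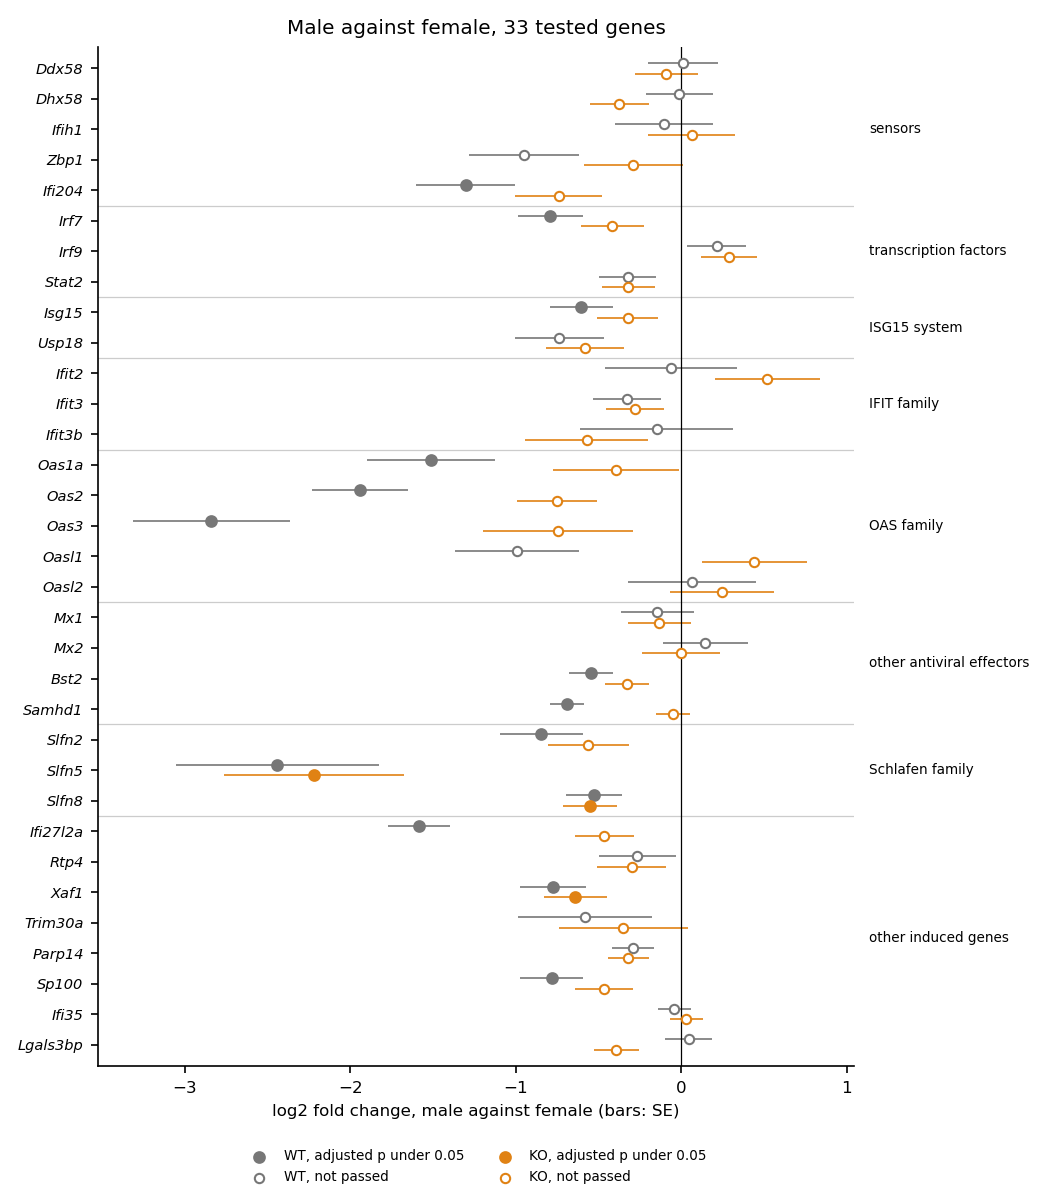
Points give the log2 fold change of male against female for the 33 tested members, in WT (grey) and KO (orange), with bars of 1 SE; filled points passed an edgeR adjusted p of 0.05. The 14 filled grey points are all below 0, reaching -2.84 for Oas3, and the 3 filled orange points are Slfn5, Slfn8 and Xaf1.

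The sensors come first in the pathway. Ifih1, Ddx58 and Dhx58 detect double-stranded or triphosphate RNA in the cytosol, Zbp1 detects nucleic acid in the Z form, and Ifi204 is a DNA-binding protein of the PYHIN family. None of the 5 passed in a KO comparison; in males all 5 had a positive log2 fold change, from 0.07 (Dhx58) to 0.53 (Ifi204). Ifih1 was at 12.4, 7.87, 6.72 and 8.804 CPM in female WT, 4.12, 11.4, 10.7 and 10.3 in female KO, 9.01, 9.27, 8.07, 6.38 and 10.3 in male WT and 6.56, 11.5, 8.903, 9.703 and 10.97 in male KO. The 4 groups overlapped, and its log2 fold changes lay between -0.10 and 0.16 in the sex and KO comparisons, with SEs of 0.20 to 0.32. Ifi204 was at 15.5, 12.4, 38.1 and 17.6 CPM in female WT and 17.0, 23.03, 14.6 and 15.4 in female KO, against 7.51, 9.56, 5.72, 5.74 and 8.502 in male WT and 12.4, 9.46, 8.29, 14.8 and 8.73 in male KO. Every male WT library was below every female library, and Ifi204 fell in male against female WT by 1.30 ± 0.30 on the log2 scale (edgeR adjusted p = 0.00501). That call was lost with the reads-per-UMI range as covariate (-1.26, edgeR adjusted p = 0.147) and within 2.4 to 4 reads per UMI (-1.18, 0.269).

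Among the transcription factors, Irf7, which drives the transcription of interferon alpha genes, differed between the sexes in WT. Irf7 was at 44.1, 45.5, 94.04 and 60.8 CPM in female WT and 47.9, 35.3, 37.9 and 66.9 in female KO. In males it was at 37.5, 36.5, 30.3, 33.8 and 27.6 CPM in WT and 38.3, 33.9, 31.6, 29.7 and 29.9 in KO. No male WT library reached the lowest female WT library, and the female WT values spread widely, with replicate 34 highest. Irf7 fell in WT males by 0.79 ± 0.20 (edgeR adjusted p = 0.00816), a call lost with the reads-per-UMI range as covariate (-0.56, edgeR adjusted p = 0.326) and within 2.4 to 4 reads per UMI (-0.78, 0.183). Its KO effects were -0.40 ± 0.21 in females and -0.03 ± 0.17 in males, and neither passed. Irf7 overlaps Phrf1 on the opposite strand, and the strand setting of the counting is not given, so reads of the 2 genes cannot be told apart with certainty.

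Irf9 and Stat2, the other members of the interferon-activated complex, passed in no comparison. Irf9 was at 118, 112, 91.8 and 161 CPM in female WT, 163, 147, 146 and 59.2 in female KO, 162, 131, 143, 129 and 149 in male WT and 168, 156, 178, 154 and 175 in male KO. The low value in female KO belongs to the shallow replicate 33. Stat2 was at 52.6, 74.7, 109.7 and 52.02 CPM in female WT, 78.8, 70.6, 74.6 and 54.04 in female KO, 56.6, 55.9, 51.8, 53.6 and 56.3 in male WT and 72.2, 56.8, 56.2, 52.7 and 50.9 in male KO. The 10 male libraries of Stat2 lay between 50.9 and 72.2 CPM, and male against female gave -0.32 on the log2 scale in both genotypes (edgeR adjusted p = 0.201 in WT and 0.224 in KO). Irf9 shares part of its locus with Rnf31 on the same strand.

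The ISG15 system attaches the ubiquitin-like protein Isg15 to other proteins, and Usp18 removes it and damps signalling at Ifnar2. Isg15 was at 65.04, 74.2, 112 and 58.4 CPM in female WT, 75.7, 57.7, 58.3 and 56.6 in female KO, 60.6, 60.2, 41.7, 45.6 and 36.1 in male WT and 45.6, 65.7, 53.7, 44.7 and 43.2 in male KO. Isg15 fell in WT males by 0.60 ± 0.19 (edgeR adjusted p = 0.0327), although the WT groups overlapped. That call was lost without any 1 of 6 of the 9 WT libraries, female WT replicates 30, 31 and 34 and male WT replicates 13, 14 and 37 (edgeR adjusted p = 0.0535 to 0.124), and within 2.4 to 4 reads per UMI it came to -0.13 (edgeR adjusted p = 0.863). Usp18 was at 12.4, 16.9, 24.6 and 12.01 CPM in female WT, 13.4, 19.96, 19.4 and 23.2 in female KO, 12.01, 11.9, 7.06, 6.06 and 9.56 in male WT and 9.12, 14.4, 13.5, 14.6 and 10.3 in male KO. It passed in no comparison, with -0.74 ± 0.27 for male against female WT (edgeR adjusted p = 0.0646), which passed without male WT replicate 11 (-0.85, edgeR adjusted p = 0.0476).

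The IFIT family comprises proteins that bind foreign RNA, encoded side by side on chromosome 19. Its 3 tested members had positive fitted KO effects in both sexes, and 1 of the 3 passed. For Ifit2 in females the mean CPM went the other way, as given below. Ifit3 (chr19:34583531-34588731, assembly mm10) was at 25.2, 21.9, 27.9, 23.2 and 19.4 CPM in male KO against 12.5, 18.8, 12.1, 16.9 and 10.98 in male WT. In females it was at 26.3, 29.5, 25.2 and 38.6 CPM in KO against 19.4, 19.7, 15.7 and 16.01 in WT. Every KO library was above every WT library of its sex. Ifit3 rose by 0.70 ± 0.16 in males (edgeR adjusted p = 0.0107) and by 0.67 ± 0.13 averaged over the sexes (edgeR adjusted p = 0.0026); in females the value was 0.65 ± 0.21 and did not pass (edgeR adjusted p = 0.11). The difference between the sexes was -0.05 ± 0.27. The male call was lost on uncorrected read counts (0.70, edgeR adjusted p = 0.125), without male KO replicates 6, 9 and 17 (0.56, 0.227) and within 2.4 to 4 reads per UMI (0.30, 0.778), where male KO is replicate 9 alone, while within the libraries under 2.4 it was 0.99 (0.00577).

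Ifit3b (chr19:34607970-34613401), a near copy of Ifit3 with the same 2 ISRE windows, was at 4.65, 5.06, 6.72 and 1.601 CPM in female WT, 9.27, 4.298, 7.57 and 5.15 in female KO, 5.01, 6.66, 1.68, 3.19 and 2.48 in male WT and 2.92, 5.48, 4.605, 5.91 and 3.86 in male KO. The groups overlapped and no comparison passed, with KO effects of 0.67 ± 0.47 in females and 0.25 ± 0.35 in males. Reads of copies this alike can be split between them or discarded, so the separate values of Ifit3 and Ifit3b are uncertain. Ifit2 was at 6.93, 7.47, 7.06, 10.1 and 8.84 CPM in male KO against 4.505, 4.63, 4.37, 3.51 and 5.31 in male WT, with no overlap, yet its 0.87 ± 0.29 did not pass (edgeR adjusted p = 0.0808). In females the fitted KO effect of Ifit2 was 0.29, the lowest of the 3 tested family members. Its mean was nonetheless lower in female KO (4.61 CPM, 0 to 7.85) than in female WT (5.17 CPM, 2.32 to 8.96). In female KO replicate 33 no Ifit2 molecule was counted, which allows up to 6.88 CPM of the library total in that shallow library. Ifit1, not tested, had 10, 4, 10, 21 and 28 UMIs in the male KO libraries, or 3.65, 1.99, 3.07, 4.43 and 2.84 CPM, and 2, 6, 5, 4 and 5 UMIs in male WT, or 1.001, 1.74, 1.68, 1.28 and 1.77 CPM.

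The OAS family included the member with the lowest p in the male KO comparison and the one with the widest WT sex difference. Oas1a, Oas2 and Oas3 respond to double-stranded RNA by making short oligoadenylates that switch on RNase L, and they lie in 1 cluster on chromosome 5; Oasl1 and Oasl2 are related proteins, of which Oasl1 restrains the translation of Irf7. All 5 had a positive KO effect in males, with a median log2 fold change of 0.75, and 2 of the 5 passed; in females 2 of 5 were positive, with a median of -0.28, and none passed. In WT males 3 of 5 were lower than in WT females.

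Oas2 (chr5:120730333-120749853) was at 4.004, 8.11, 7.399, 5.42 and 8.86 CPM in male WT and at 14.6, 29.9, 15.7, 14.3 and 16.05 in male KO. In females it was at 27.9, 17.4, 40.3 and 28.01 CPM in WT and 37.6, 30.7, 23.3 and 25.7 in KO. The 5 male WT libraries lay below all others, male KO was higher with replicate 9 far above its group, and the female groups overlapped. Oas2 rose in male KO by 1.35 ± 0.25 (edgeR adjusted p = 0.00164), a call kept in every alternative tried, where edgeR or DESeq2 adjusted p reached at most 0.0343, and averaged over the sexes by 0.75 ± 0.19 (edgeR adjusted p = 0.013; on read counts 0.50 and 0.288). In females the value was 0.16 ± 0.28, and the difference between the sexes was -1.19 ± 0.38 (edgeR adjusted p = 0.298). Oas2 fell in WT males against WT females by 1.94 ± 0.29 (edgeR adjusted p = 0.000107), 3.84-fold, again in every alternative. In KO the sex difference was -0.75 ± 0.24 and did not pass (edgeR adjusted p = 0.0609); it passed without female KO replicate 16 or male KO replicate 9 (0.0238 and 0.0142, edgeR). The gene Gm43068 overlaps Oas2 on the opposite strand.

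Oas3 (chr5:120753098-120777661) was at 10.8, 5.62, 20.2 and 16.8 CPM in female WT and 4.12, 6.14, 3.37 and 7.72 in female KO. Its male values were 3.003, 2.32, 1.35, 1.59 and 0.354 CPM in WT, or 6, 8, 4, 5 and 1 UMIs, and 4.01, 4.48, 3.68, 1.48 and 1.93 in KO. Every male WT library was below every female library of either genotype. Oas3 fell in WT males by 2.84 ± 0.48 (edgeR adjusted p = 0.000359) and did so in every alternative. The KO effects pointed in opposite directions, -1.34 ± 0.47 in females and 0.75 ± 0.47 in males, and neither passed (edgeR adjusted p = 0.14 and 0.445), nor did their difference of -2.09 ± 0.66 (edgeR adjusted p = 0.298).

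Oas1a was at 22.5, 6.18, 8.96 and 8.004 CPM in female WT and 8.24, 6.14, 3.93 and 7.72 in female KO, against 4.505, 6.08, 2.69, 3.19 and 3.54 in male WT and 4.74, 4.98, 6.75, 4.22 and 3.15 in male KO. It fell in WT males by 1.51 ± 0.39 (edgeR adjusted p = 0.0103), but female WT replicate 30 stood apart from its group, and without it the value was -0.86 (edgeR adjusted p = 0.174). On read counts it was -0.64 (0.465), with the reads-per-UMI range as covariate -0.87 (0.507) and within 2.4 to 4 reads per UMI -0.76 (0.624, all edgeR adjusted p). Oas1a belongs to a set of close paralogs, so its counts are uncertain to that extent.

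Oasl1 was at 7.29, 9.46, 7.37, 6.54 and 4.98 CPM in male KO against 2.002, 3.76, 3.36, 3.19 and 2.83 in male WT. In females it was at 4.64, 4.298, 6.73 and 2.57 CPM in KO and 2.32, 6.18, 8.96 and 8.804 in WT, where the groups overlapped. Male KO lay wholly above male WT, and Oasl1 rose by 1.15 ± 0.30 (edgeR adjusted p = 0.0201); the call was lost without male WT replicate 10 or 37 (1.06 and 1.13, edgeR adjusted p = 0.0575 and 0.0524), without male KO replicates 6, 9 and 17 (0.88, 0.324), on read counts (1.40, 0.184) and within 2.4 to 4 reads per UMI (1.43, 0.325). In female KO its value was -0.28 ± 0.39. Oasl2 had 0.72 ± 0.29 in males and 0.54 ± 0.40 in females, and neither passed (edgeR adjusted p = 0.168 and 0.575). Oasl1 overlaps Gm13822 on the opposite strand.

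**Figure D5:**
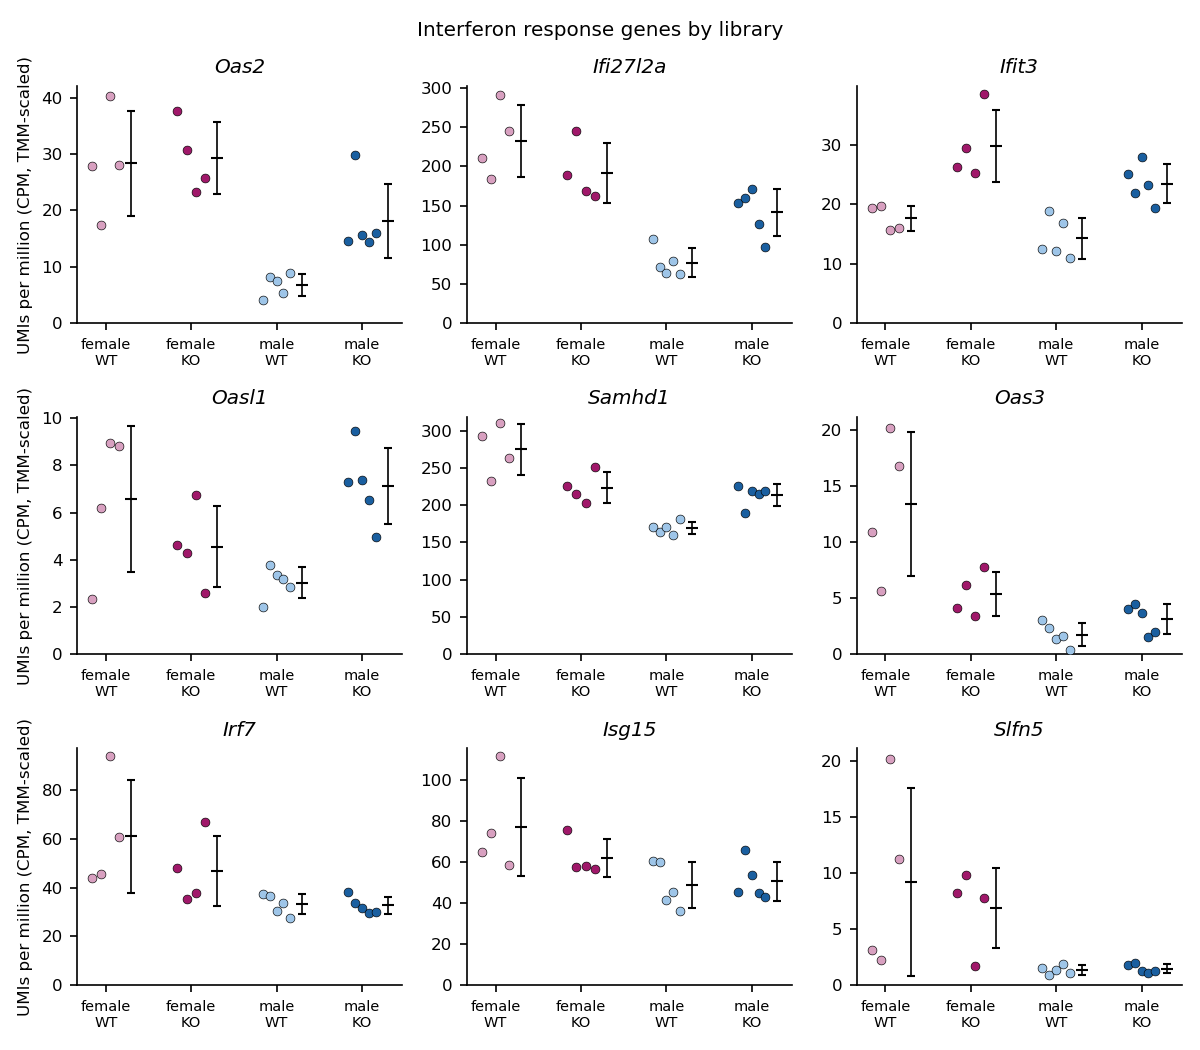
Each point is 1 library and shows the CPM (TMM-scaled) of a member in the 4 groups; the horizontal dash and bar give the group mean and SD. Male WT is lowest for Oas2, Ifi27l2a, Samhd1 and Oas3, male KO lies above male WT for Oas2, Ifit3, Oasl1 and Samhd1 with no overlap, and female WT spreads widely for Slfn5, Oas3 and Irf7.

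Among the other antiviral effectors, Samhd1, which breaks down the nucleotides that viral reverse transcription needs, rose in male KO and had a negative value in female KO that did not pass. It was at 226, 189.7, 219, 215 and 219.6 CPM in male KO against 171, 164, 171, 160.1 and 182 in male WT. In females it was at 226, 215, 202 and 252 CPM in KO and 293, 233, 311 and 263 in WT. All 5 male WT libraries were below all others, and the male KO and female KO groups overlapped. Samhd1 rose in male KO by 0.34 ± 0.10 (edgeR adjusted p = 0.0371), while the female value of -0.30 ± 0.11 did not pass (edgeR adjusted p = 0.165). The male call did not outlast the removal of any 1 of 8 of the 10 male libraries, all but KO replicate 9 and WT replicate 37 (log2 fold changes 0.32 to 0.35, edgeR adjusted p = 0.0662 to 0.105), nor the removal of male KO replicates 6, 9 and 17 (0.37, 0.204), read counts (0.33, 0.253) or the absence of a filter (0.35, 0.151). Samhd1 fell in WT males against WT females by 0.69 ± 0.10 (edgeR adjusted p = 0.000126), with -0.69 and 0.0615 within 2.4 to 4 reads per UMI, and the KO groups differed by -0.05 ± 0.10 (edgeR adjusted p = 0.816).

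Bst2, or tetherin, which holds budding virus at the cell surface, was at 533, 479.9, 439 and 621 CPM in female WT, 469, 464, 374 and 561 in female KO, 407, 341, 328, 381 and 327 in male WT and 358, 441, 395, 312 and 346 in male KO. No male WT library reached the lowest female WT library. Bst2 fell in WT males by 0.54 ± 0.13 (edgeR adjusted p = 0.00722), and with the reads-per-UMI range as covariate the value was -0.44 (0.174). Its KO effects were -0.17 ± 0.14 in females and 0.05 ± 0.12 in males. Mx1, an antiviral GTPase, and Mx2, annotated as a polymorphic pseudogene, passed in no comparison; the KO effect of Mx1 was 0.30 ± 0.18 in males and 0.29 ± 0.23 in females, and that of Mx2 -0.09 ± 0.21 and 0.05 ± 0.28. Rsad2 (viperin) and Cmpk2, neighbours on chromosome 12, had at most 8 and 18 UMIs in any library.

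The Schlafen family, a cluster on chromosome 11 whose members restrain proliferation and translation, had no call in a KO comparison and calls in both sex comparisons. Slfn5 was at 3.097, 2.25, 20.2 and 11.2 CPM in female WT and 8.24, 9.83, 1.68 and 7.72 in female KO. The male libraries held 1.502, 0.869, 1.35, 1.91 and 1.06 CPM in WT and 1.82, 1.99, 1.23, 1.05 and 1.22 in KO, or 3 to 12 UMIs per library. The female libraries spread over a wide range, and no male WT library reached the lowest female WT library. Slfn5 fell in males by 2.44 ± 0.61 in WT (edgeR adjusted p = 0.00898) and by 2.22 ± 0.54 in KO (edgeR adjusted p = 0.0174). The KO call was lost without female KO replicate 1 or 7 (0.0651 and 0.136, edgeR), and with the reads-per-UMI range as covariate the values were -2.28 in WT and -1.56 in KO (edgeR adjusted p = 0.117 and 0.17). Slfn5 overlaps Slfn5os on the opposite strand.

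Slfn8 was at 61.2, 52.3, 89.6 and 75.2 CPM in female WT, 73.1, 72.8, 58.9 and 51.5 in female KO, 40.04, 55.9, 43.05, 40.8 and 52.1 in male WT and 51.05, 55.8, 37.8, 45.1 and 37.3 in male KO. It fell in males by 0.53 ± 0.17 in WT (edgeR adjusted p = 0.0377) and by 0.55 ± 0.16 in KO (edgeR adjusted p = 0.0421), with overlapping groups in both. The WT call was lost without any 1 of 6 of 9 libraries (edgeR adjusted p = 0.0666 to 0.119). These were female WT replicates 30, 34 and 39 and male WT replicates 10, 13 and 14. It was also lost with no filter (-0.41, 0.129), on read counts (-0.63, 0.0555) and with the covariate (-0.62, 0.171, all edgeR adjusted p). The KO call was lost without any 1 of 6 of 9, female KO replicates 1 and 7 and male KO replicates 6, 17, 36 and 40 (edgeR adjusted p = 0.0506 to 0.168). Slfn2, which keeps T cells and monocytes quiescent, was at 126, 54.5, 150.02 and 145 CPM in female WT, 105, 88.4, 80.5 and 56.6 in female KO, 56.1, 78.2, 55.5, 66.0 and 63.8 in male WT and 42.7, 86.1, 52.8, 72.6 and 40.9 in male KO. Female WT replicate 31 lay below all the male WT libraries while the other 3 lay above them. Slfn2 fell in WT males by 0.85 ± 0.25 (edgeR adjusted p = 0.0229). That call was lost without female WT replicate 30, 34 or 39 or male WT replicate 13 (edgeR adjusted p = 0.0511 to 0.0842). On read counts the value was -0.78 (0.0637) and with the reads-per-UMI range as covariate -1.02 (0.0902, both edgeR adjusted p).

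Of the other induced genes, Ifi27l2a showed the lowest p of any member in any comparison. Ifi27l2a (chr12:103442167-103443680), a small membrane protein strongly induced by interferon, was at 211, 184, 291 and 245 CPM in female WT and 189.5, 246, 168 and 162 in female KO. In males it was at 107, 71.8, 63.6, 79.7 and 63.1 CPM in WT and 154, 159.8, 171, 126 and 96.5 in KO. No male WT library reached any female library, and male KO ran from below male WT replicate 10 (in replicate 40) up into the female KO range. Ifi27l2a fell in WT males against WT females by 1.58 ± 0.19 (edgeR adjusted p = 9.63e-06), 2.99-fold, and did so in every alternative. It rose in male KO by 0.88 ± 0.17 (edgeR adjusted p = 0.00256); without male KO replicates 6, 9 and 17 the value was 0.54 (0.256). In females the KO effect was -0.24 ± 0.20, and male KO against female KO gave -0.46 ± 0.18 (edgeR adjusted p = 0.123).

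Sp100, a protein of PML nuclear bodies, was at 42.6, 44.96, 47.02 and 42.4 CPM in female WT, 26.3, 53.7, 41.5 and 36.02 in female KO, 27.03, 29.5, 21.9, 25.2 and 24.1 in male WT and 36.5, 29.9, 34.1, 24.05 and 24.2 in male KO. The 4 female WT libraries lay close together, above all 5 male WT libraries. Sp100 fell in WT males by 0.78 ± 0.19 (edgeR adjusted p = 0.00689), and was lost with the reads-per-UMI range as covariate (-0.77, 0.174) and on read counts (-0.55, 0.0952). Xaf1, which opposes the apoptosis inhibitor Xiap, was at 60.4, 68.0, 71.7 and 48.8 CPM in female WT, 59.7, 75.2, 38.7 and 41.2 in female KO, 25.03, 45.5, 29.6, 39.9 and 37.9 in male WT and 30.3, 41.8, 38.4, 35.4 and 33.4 in male KO. Xaf1 fell in males by 0.77 ± 0.20 in WT (edgeR adjusted p = 0.0103) and by 0.64 ± 0.19 in KO (edgeR adjusted p = 0.0444). Within 2.4 to 4 reads per UMI the WT value was -0.18 (0.781), and the KO call was lost without any 1 of 6 libraries, female KO replicates 1 and 7 and male KO replicates 6, 17, 36 and 40 (0.0662 to 0.276, all edgeR adjusted p).

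Lgals3bp, a secreted galectin-binding glycoprotein, was the member nearest to a KO call in females. It was at 318, 401, 348 and 507 CPM in female KO against 228, 315, 249 and 271 in female WT, without overlap. Male values were 296, 320.1, 308, 304 and 255 CPM in KO and 312, 323, 249, 241 and 249.8 in WT, with overlap. The female value of 0.54 ± 0.15 just missed the threshold (edgeR adjusted p = 0.0509) and passed with DESeq2 (adjusted p = 0.0150), without a filter, with the reads-per-UMI range as covariate, and without female KO replicate 1 or female WT replicate 31 (edgeR adjusted p = 0.0445 and 0.0301). Averaged over the sexes Lgals3bp rose by 0.33 ± 0.10 (edgeR adjusted p = 0.0376), which 11 of the 18 libraries could end when left out, female KO 7, female WT 30, 34 and 39, male KO 6, 9, 17 and 36 and male WT 13, 14 and 37 (edgeR adjusted p = 0.0506 to 0.0815). Rtp4, Trim30a, Parp14 and Ifi35 passed in no comparison; the KO effects of Rtp4 were 0.34 ± 0.19 in males and 0.38 ± 0.24 in females, those of Trim30a -0.40 ± 0.35 and -0.63 ± 0.44, and those of Parp14 and Ifi35 lay between -0.15 and -0.03. Ifi44, with at most 3 UMIs in a library, was not tested.

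The genes that feed the interferon response were read from a separate list of 86 pathway genes that are no members, 64 of them tested. The interferons themselves were barely present. Of 12 ligand genes, 10 were at 0 in all 18 libraries, and the others gave 4 UMIs in all, 3 of Ifnb1 and 1 of Ifng, out of 50005763; a count of 0 over all libraries allows up to 0.06 CPM, and in the shallowest library up to 6.88 CPM. Of the receptor genes, Ifnar1 had 23.2 to 70.7 CPM over the 18 libraries and Ifnar2 59.2 to 261 CPM; Jak1 and Tyk2 had 64.3 to 204 and 54.0 to 121 CPM, and for all 4 the lowest library was the shallow female KO replicate 33. None of these 4 passed in any of the 6 comparisons, with KO effects of -0.23 ± 0.19 (Ifnar1), -0.30 ± 0.20 (Ifnar2), 0.08 ± 0.19 (Jak1) and -0.09 ± 0.15 (Tyk2) in females and 0.12 ± 0.15, 0.12 ± 0.17, 0.09 ± 0.17 and -0.08 ± 0.12 in males. For male against female KO, Ifnar2 came near the threshold (0.59, edgeR adjusted p = 0.0571). It passed with DESeq2 (0.615, adjusted p = 0.0177), without a filter (0.633, edgeR adjusted p = 0.00153) and without female KO replicate 16 (0.81, edgeR adjusted p = 0.0045). Over all alternatives its value ran from 0.11 to 0.81.

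In the KO comparisons none of the 64 passed in males, against 6.24% of all tested genes in either direction. An edgeR unadjusted p under 0.05 was seen for 8 of them, with no share over all genes given here. In females 1 rose, against 0.849% of all tested genes, namely Socs3, a feedback inhibitor of Jak kinases. Socs3 was at 136, 154, 189 and 183 CPM in female KO against 101, 82.6, 89.6 and 121 in female WT. In males it was at 218, 239, 222, 199 and 211 CPM in KO and 337, 279, 294, 264 and 185 in WT. Female KO lay wholly above female WT, and most male KO libraries lay below most male WT libraries. Socs3 rose in female KO by 0.73 ± 0.17 (edgeR adjusted p = 0.0236), with -0.32 ± 0.14 in males (edgeR adjusted p = 0.204), and the difference of 1.05 ± 0.22 passed (edgeR adjusted p = 0.0448), against 0.0457% of all tested genes in that direction. The female call was lost without female KO replicate 16 or female WT replicate 30, 31 or 34 (0.0569 to 0.0804), and the difference without any 1 of 12 of the 18 libraries (0.0507 to 0.109, all edgeR adjusted p). The female value was 0.66 with the reads-per-UMI range as covariate, 0.76 with the female groups fitted alone and 0.27 within 2.4 to 4 reads per UMI (edgeR adjusted p = 0.111, 0.145 and 0.548). The difference between the sexes was 0.98 with the covariate, 1.23 on read counts, 1.15 without male KO replicates 6, 9 and 17, 1.00 without the shallowest pair of libraries and 0.44 within 2.4 to 4 reads per UMI, and passed in none of these (edgeR adjusted p = 0.081 to 0.613). Averaged over the sexes, 1 of the 64 rose and 1 fell, against 4.37% and 5.13% of all tested genes. Cgas, a cytosolic DNA sensor, rose by 0.41 ± 0.11 and Tlr3, an endosomal RNA sensor, fell by 1.01 ± 0.30 (edgeR adjusted p = 0.0225 and 0.0338); neither passed with the reads-per-UMI range as covariate, and the calls were lost without female KO replicate 7 or female WT replicate 39 for Cgas and without any 1 of 11 libraries for Tlr3.

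Between the sexes, 9 of the 64 pathway genes were lower and 5 higher in WT males, against 10.3% and 6.94% of all tested genes. In KO males 5 were lower and none higher, against 4.27% and 2.83%. Among the lower ones in WT were Mndal (-2.91 ± 0.62), Tlr7 (-1.75 ± 0.44), Pias1 (-0.76 ± 0.19), Ifi203 (-2.01 ± 0.53), Cxcl10 (-1.20 ± 0.32), Eif2ak2 (-0.64 ± 0.19), Cxcl9 (-2.09 ± 0.65) and Uba7 (-0.38 ± 0.12), with edgeR adjusted p from 0.00285 to 0.0365. Mndal and Ifi203 are PYHIN relatives of Ifi204, Eif2ak2 encodes the antiviral kinase PKR, and Uba7 activates Isg15. Mndal and Ifi203 overlap on the same strand, so their reads cannot be told apart with certainty. They had 164 and 198 UMIs over the 18 libraries. Igtp, given next, likewise overlaps Irgm2 on the same strand. The higher ones were Socs3 (1.46 ± 0.16), Igtp (0.67 ± 0.13) and Irgm1 (1.24 ± 0.33), both GTPases induced by interferon gamma, Irf5 (0.42 ± 0.12) and Irf8 (0.42 ± 0.12), with edgeR adjusted p from 4.1e-06 to 0.0235. In KO males Tlr7 (-2.32 ± 0.44), Dtx3l (-1.23 ± 0.26), Eif2ak2 (-0.81 ± 0.18), Rnf213 (-0.66 ± 0.15) and Cxcl9 (-2.05 ± 0.58) were lower, with edgeR adjusted p from 0.00374 to 0.0339. Without female KO replicate 7 alone, the calls of Dtx3l, Eif2ak2, Rnf213 and Cxcl9 were lost (edgeR adjusted p = 0.0533 to 0.121). The Cxcl9 call was lost without any 1 of 5 of the 9 KO libraries, and Cxcl9 had 92 UMIs over the 18 libraries. Tlr7, the endosomal sensor of single-stranded RNA, lies on the X chromosome, and was at 115, 52.8, 139 and 143 CPM in female WT, 130.3, 128, 35.6 and 84.9 in female KO, 31.5, 33.01, 27.6, 30.3 and 40.03 in male WT and 6.93, 53.8, 9.52, 23.4 and 10.4 in male KO. With the reads-per-UMI range as covariate, 3 of the 14 pathway calls in WT held, those of Socs3, Mndal and Ifi203, and without female WT replicate 34 there were 8 calls.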

How the data were processed

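Bulk MARS-seq 3' libraries were made from 30 ng of RNA, per the labels' protocols. The authors deposited counts per gene for 18 libraries, once as reads and once corrected for UMIs; cutadapt, STAR, HTSeq and the build mm10 are named in the submitters' processing notes, without versions. A further 16 columns of each table matched no sample and were not used. UMI counts were tested with edgeR 4.0.16 (R 4.3.3): filterByExpr by group (minimum count 10), TMM scaling, 1 mean per group over all 18 libraries, quasi-likelihood F tests, and Benjamini-Hochberg adjustment over 10948 genes, called under 0.05. The SE is the log2 fold change divided by the root of F. CPM values are TMM-scaled unless said to be of the library total. The scripts were tested on simulated data. The alternatives were DESeq2 1.42.0, median-of-ratios scaling, no filter, read counts, each contrast fitted alone, the reads-per-UMI range as covariate or within ranges, and leaving out libraries. Values in every library are given for the 15 called members with the lowest p and fixed examples of each role; Lgals3bp, Ifit1, Ifit2, Socs3 and Tlr7 were singled out after their values were seen. Members and lists were chosen with earlier results of these data known. Gene positions are from GENCODE M21 (GRCm38), and symbols matched 52081 of 55414 gene IDs. A count of 0 allows up to 3 counts; such limits cover counting error only. The result of 1 pathway gene is not reported here.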

Additional observations from a re-analysis of the deposited data

Results flagged for a closer look

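In 7 of the 132 sets of values formed by 33 members and 4 groups, 1 library lay far from the others of its group by Dixon's test, and chance gives about 1 in 20, or 6.6. Ifih1 was lowest in female KO replicate 1, at 4.12 CPM (8 UMIs), with the next library at 10.3. Irf9 was lowest in female KO replicate 33, at 59.2 CPM (23 UMIs), with the next at 146. Isg15 was highest in female KO replicate 1, at 75.7 CPM (147 UMIs), with the next at 58.3. Mx1 was highest in male WT replicate 11, at 15.3 CPM (53 UMIs), with the next at 12.01. Oas1a was highest in female WT replicate 30, at 22.5 CPM (29 UMIs), with the next at 8.96. Oas2 was highest in male KO replicate 9, at 29.9 CPM (60 UMIs), with the next at 16.0. Stat2 was highest in male KO replicate 6, at 72.2 CPM (198 UMIs), with the next at 56.8. Among the pathway genes, the KO effect of Socs3 differed between the sexes, by 1.05 on the log2 scale (female minus male), and this difference passed the edgeR test.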

How the results depend on the processing

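For 76 pairs of a gene and a comparison, 1498 values were recomputed, and none changed sign. The pairs were of named genes with a log2 fold change over 2 SE in the main fit, called or not. That choice and the shared libraries made a change of sign unlikely beforehand, so its absence is no support for the calls. No paired analysis was possible because the replicate numbers differ for every library. The number of members called for KO against WT in females was 0, and became 1 with DESeq2, with no filter and with the reads-per-UMI range as covariate. In males it was 5, and became 2 on read counts, 1 without male KO replicates 6, 9 and 17, and 2 within 2.4 to 4 reads per UMI, a restriction chosen after seeing the data. Averaged over the sexes it was 3, and became 1 on read counts and 1 within 2.4 to 4 reads per UMI. For the KO effect, female minus male, it was 0, and became 2 with DESeq2 and 1 with no filter. For male against female in WT it was 14, and became 4 with the covariate and 6 within 2.4 to 4 reads per UMI. In KO it was 3, and became 5 with no filter and 0 on read counts, with the 2 groups fitted alone, with the covariate, without male KO replicates 6, 9 and 17, and within either range of reads per UMI (Slfn5 was not tested under 2.4). Some smaller shifts are not listed one by one. They took the number up to 7 in males, 4 averaged over the sexes and 15 between the sexes in WT. Leaving out 1 library at a time gave 0 to 1 in females, 3 to 5 in males and 2 to 4 averaged. It gave 0 to 2 for the difference, 11 to 15 between the sexes in WT and 0 to 7 in KO. The cause of these shifts was not tested, except that fits with fewer libraries have fewer values. Over all genes, 293 were called for KO against WT in females (71 without female WT replicate 30, 680 without female KO replicate 33). With those groups fitted alone it was 0. In males 683 were called (222 on read counts, 196 without male KO replicates 6, 9 and 17). Between the sexes in WT 1892 were called (271 with the covariate, 1188 on read counts). Between the sexes in KO 777 were called, with 1354 without a filter, 312 on read counts and 235 with the groups fitted alone. With the covariate that number was 326, and without male KO replicates 6, 9 and 17 it was 104. Averaged over the sexes 1040 were called (480 on read counts). For the difference 26 were called (76 with DESeq2, 238 without a filter). Of the 25 member calls, 4 held in every alternative, Oas2 in male KO and Oas2, Oas3 and Ifi27l2a between the sexes in WT. Depth limits the low members most: in female KO replicate 33 15 of 33 members had under 10 UMIs.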
